A study of Homo sapiens with 34 samples.

Results

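The line VCaP was compared with the line RWPE, both grown on plastic in their control medium, by sequencing of poly(A)-selected RNA. The comparison uses 4 of the 34 samples of the series, 2 libraries of each line, picked by the cell line and condition in their labels. The series as a whole covers 4 prostate lines on plastic or on a calcium-containing coating called ACP, in control medium, serum-stripped medium or medium with an androgen that the condition labels call testosterone and the titles DHT. RWPE is labelled as non-tumorigenic prostate epithelium and was kept in serum-free keratinocyte medium with EGF and bovine pituitary extract. VCaP is labelled as a bone-metastatic line and was kept in 10% fetal bovine serum in a 1:1 mixture of DMEM and F12, with the same antibiotics as RWPE. The labels of the plastic control samples give continuous culture as the time, while the treatment protocol has flasks passaged and grown for 4 days. Each line came from its own donor and had its own medium, so line, donor and medium cannot be told apart in any difference given here. The genes were left out whose RWPE counts of 44562 to 44926 lay at least 5 times above all other RWPE values outside that range, which was 12 genes.

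The prostate gland has a basal layer that rests on the basement membrane and a luminal layer that faces the duct. Basal cells are known for the keratins 5 and 14, the transcription factor p63 and hemidesmosomes, while luminal cells respond to androgen and secrete kallikreins and acid phosphatase. VCaP is widely used as an androgen-responsive model that carries a fusion of TMPRSS2 to the ETS factor ERG, and gene-level counts do not resolve that fusion transcript.

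The VCaP libraries held 35474166 and 42253685 counts and the RWPE libraries 38184771 and 40368069 counts, in a series that ranges from 15440141 to 44779246 counts. Levels are given as counts per 1000000 counts (CPM) after trimmed-mean scaling, and where paired values are given they are those of replicates 1 and 2. The VCaP pair was the more variable. This was counted over 12219 genes whose mean reached 5 CPM in either line, on plastic or on ACP in control medium. Of these, 572 (4.68%) differed over 2-fold between the VCaP plastic replicates, against 33 (0.270%) between those of RWPE. edgeR's biological coefficient of variation, shared by all genes, came to 29.0% in VCaP and 9.27% in RWPE. The plastic libraries of every line also held transcripts of the liver: the fibrinogen chains FGA, FGB and FGG lay between 0.718 and 2.85 CPM in all 8 plastic control libraries of the 4 lines and had 0 reads in all 4 control libraries of VCaP and RWPE on ACP. The part of this in the line differences was not tested. The p-values rest on a spread estimated from all 34 libraries of the series, where the same coefficient was 19.9%, under that of the VCaP pair. The labels do not say that replicates came from separate cultures, so this spread is that between libraries only.

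Of 17313 genes tested with edgeR's quasi-likelihood test, 10802 (62.4%) passed a Benjamini-Hochberg adjusted p below 0.05. In VCaP 5565 genes were higher (32.1%) and 5237 were lower (30.2%). At a difference of at least 4-fold, 2668 were higher (15.4%) and 2203 were lower (12.7%). The median log2 difference over all genes tested was 0.04. For 14267 genes (82.4%) the libraries of both lines did not overlap, and the largest rises and falls named below were taken only from these. With most genes called, a list of genes is described here by its split between higher and lower and by its median, beside these values for all genes. In bulk RNA, fewer cells of a type and less RNA per cell cannot be told apart. Leaving out 1 of the 4 libraries moved the fold of 84 of the 235 called genes that the naming rule took in by over 1.5 times, and 67 of these lay below 5 CPM in the lower line. Basal, squamous and interferon-stimulated genes were mostly lower in VCaP, and androgen-induced, lipid synthesis and neuroendocrine genes were mostly higher.

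**Figure D1:**
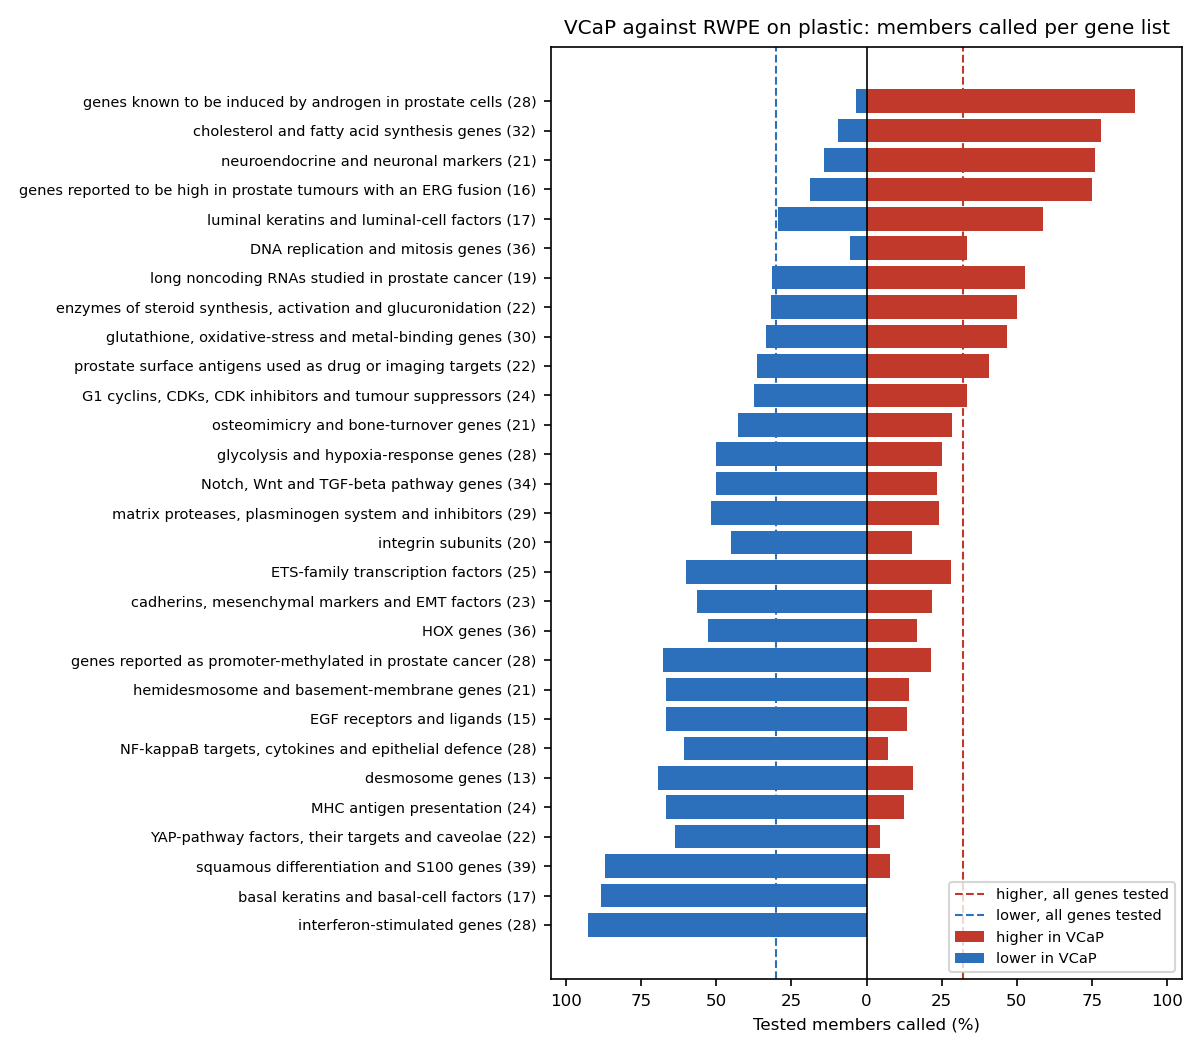
Share of the tested members of 29 gene lists that were called higher (red, to the right) or lower (blue, to the left) in VCaP than in RWPE on plastic, in percent, with the number tested in brackets. Dashed lines mark the shares over all 17313 genes, 32.1% higher and 30.2% lower; the bars of basal and interferon-stimulated genes lie on the lower side only.

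Of 17 basal keratins and basal-cell factors, all of them tested, 0 were higher and 15 lower in VCaP, with a median log2 difference of -7.49. KRT5, the main type II keratin of basal cells, was at 3.80 and 3.81 CPM in the VCaP libraries and 7242 and 7755 CPM in the RWPE libraries (log2 -10.94, SE 1.69, edgeR adjusted p = 4.45e-06). Its partner KRT14 was at 5.58 and 8.56 CPM in VCaP and 2564 and 2883 CPM in RWPE (log2 -8.59, SE 1.04). Both RWPE libraries lay far above both VCaP libraries for each keratin, with no overlap. TP63, the gene of the basal master factor p63, was at 0.263 and 0.0723 CPM in VCaP and 205 and 179 CPM in RWPE (log2 -10.19, SE 0.63, edgeR adjusted p = 1.07e-12). KRT16 and KRT6A, keratins of activated keratinocytes, were lower at log2 -11.22 and -10.39, and KRT17 at -9.57. SNAI2, a factor that represses E-cadherin, was at 0.555 and 0.265 CPM in VCaP against 51.03 and 80.9 CPM in RWPE. The fall was smallest among the called members in ITGA6, the alpha chain of the laminin receptor, at 129.8 and 142 CPM in VCaP and 479.6 and 488 CPM in RWPE (log2 -1.83, SE 0.25). CD44, a hyaluronan receptor, was lower at log2 -3.97. The Notch ligand JAG2 and the factor IRX4 did not pass the test, with log2 differences of -0.14 (SE 0.20) and -0.32 (SE 0.20).

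Of 17 tested luminal genes of 18 listed, 10 were higher and 5 lower in VCaP, with a median log2 difference of 1.52. Most transcription factors of the luminal lineage were higher in VCaP and none of the keratins was. FOXA1, a pioneer factor that opens chromatin for the androgen programme, was at 1190.3 and 913 CPM in VCaP and 12.6 and 16.97 CPM in RWPE (log2 6.15, SE 0.26, edgeR adjusted p = 2.50e-15). HOXB13, a homeobox factor of the prostate, was at 1063 and 657 CPM in VCaP and 4.49 and 8.79 CPM in RWPE (log2 7.01, SE 0.33). SPDEF, an ETS factor of secretory epithelium, was at 393 and 389 CPM in VCaP and 0.478 and 2.18 CPM in RWPE (log2 8.19, SE 0.42). The VCaP libraries were higher for all 3 factors, with no overlap. GATA2, another factor of the androgen programme, was higher by log2 6.12, and the secretory-pathway factors CREB3L4 and XBP1 by 3.31 and 1.52. By contrast, the simple-epithelial keratin KRT8 was at 485 and 373 CPM in VCaP and 485 and 549.7 CPM in RWPE, so the libraries overlapped and the test was not passed (log2 -0.27, SE 0.22). Its partner KRT18 was lower in VCaP (log2 -1.39, SE 0.20), as were KRT19 (log2 -1.79) and KRT7. KRT7 stood at 0.789 and 1.49 CPM in VCaP and 1247 and 1551 CPM in RWPE (log2 -10.23, SE 0.91). GATA3 was also lower (log2 -4.84), as was TRPS1 (log2 -7.08), and the intestinal keratin KRT20 did not pass the test.

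**Figure D2:**
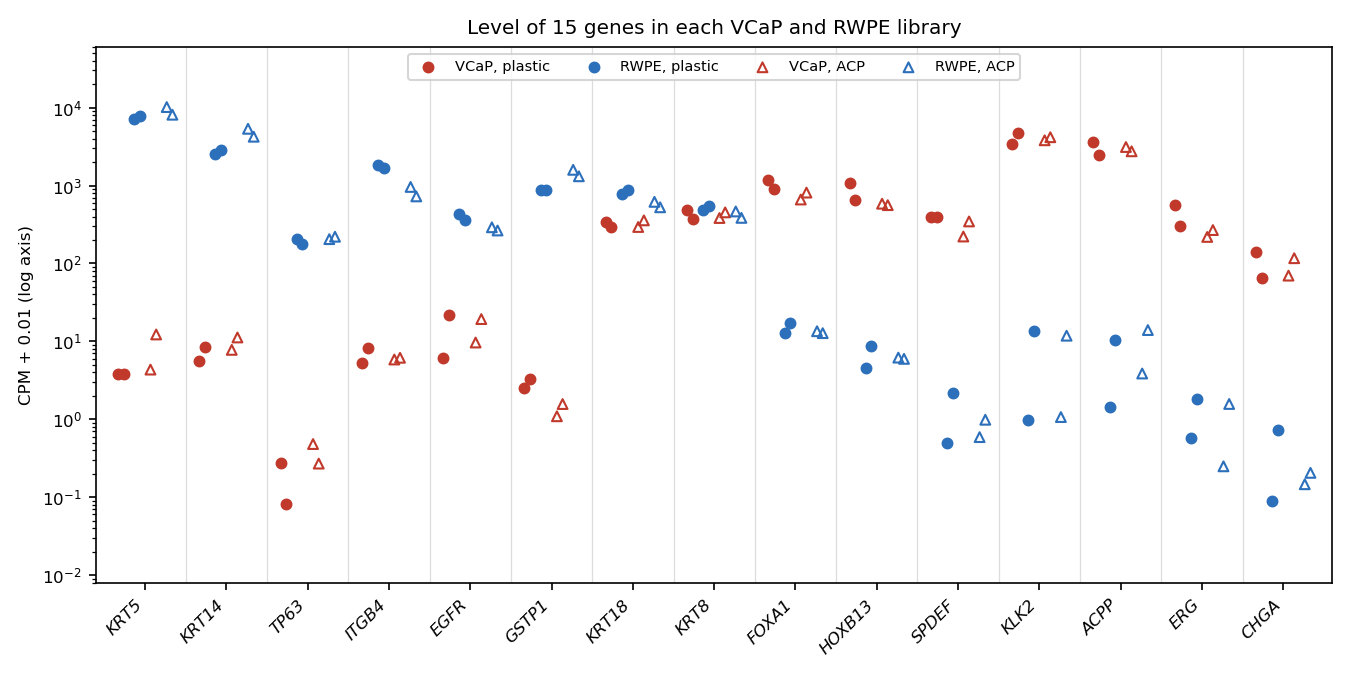
CPM plus 0.01 on a log axis for 15 genes in the 4 plastic libraries (filled circles) and the 4 control-medium ACP libraries (open triangles) of VCaP (red) and RWPE (blue), 1 point per library. KRT5 is at 3.80 and 3.81 CPM in VCaP and 7242 and 7755 CPM in RWPE on plastic, KRT8 overlaps between the lines, and KLK2 is at 3413 and 4657 CPM in VCaP.

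Androgen-induced genes were the list with the largest share of higher members. Of 28 members, all of them tested, 25 were higher in VCaP and 1 was lower (2 without VCaP replicate 2), with a median log2 difference of 2.96. KLK2 and KLK3 are neighbouring genes of the kallikrein family on chromosome 19, and KLK3 encodes prostate-specific antigen. Their upstream sequences are shown because both genes are known androgen targets while their values ran in different directions across the lines. Capitals mark a match to GAACANNNNGTNCT, a loose form of the androgen response element written after the known proximal element of KLK3. The sequences are the 250 bases before the annotated start, from RefSeq on build GRCh38.p14, plus strand, at chr19:50873189-50873438 for KLK2 and chr19:50854665-50854914 for KLK3.
KLK2: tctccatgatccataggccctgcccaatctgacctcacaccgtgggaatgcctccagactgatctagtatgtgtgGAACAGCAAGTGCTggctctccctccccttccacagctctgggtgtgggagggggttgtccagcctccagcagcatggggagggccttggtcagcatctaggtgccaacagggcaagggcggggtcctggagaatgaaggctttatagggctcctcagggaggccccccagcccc
KLK3: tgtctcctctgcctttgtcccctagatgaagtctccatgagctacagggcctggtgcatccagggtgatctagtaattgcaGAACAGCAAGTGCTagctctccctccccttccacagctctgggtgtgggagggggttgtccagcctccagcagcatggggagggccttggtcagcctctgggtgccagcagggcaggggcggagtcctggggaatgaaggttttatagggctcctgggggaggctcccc
In an alignment of both sequences, 196 of 219 aligned bases were identical (89.5%). The match starts 175 bases before the start of KLK2 and 169 bases before that of KLK3. Of 35116 upstream sequences of the same length, searched on both strands, 76 held a match (0.216%). A match of letters is a description and not a measured binding site.

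KLK2 was at 3413 and 4657 CPM in VCaP and 0.957 and 13.4 CPM in RWPE (log2 9.13, SE 0.93, edgeR adjusted p = 7.08e-09). KLK3 was at 50.5 and 89.7 CPM in VCaP and 7.71 and 19.1 CPM in RWPE (log2 2.39, SE 0.54, edgeR adjusted p = 4.80e-04). Both genes were higher in both VCaP libraries, and the difference of KLK2 was the larger. Against the other lines on plastic the neighbours went opposite ways. KLK2 was at 90.5 and 107 CPM in LNCaP, another androgen-responsive prostate cancer line, and 612 and 702 CPM in MDAPCa2a, the other line from a bone metastasis, below both VCaP libraries in each case. KLK3 was at 2866 and 2819 CPM in LNCaP and 5356 and 5565 CPM in MDAPCa2a, above both VCaP libraries. VCaP minus LNCaP was log2 5.35 (SE 0.79) for KLK2 and -5.34 (SE 0.61) for KLK3, with edgeR adjusted p = 3.56e-06 and 8.35e-08. VCaP minus MDAPCa2a was log2 2.62 (SE 0.69) and -6.28 (SE 0.64), with edgeR adjusted p = 0.0027 and 1.22e-08. How reads that match both genes were counted is not given in the sources used here.

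Other secretory and membrane genes under androgen control followed KLK2. ACPP, prostatic acid phosphatase, was at 3569 and 2487 CPM in VCaP and 1.41 and 10.4 CPM in RWPE (SE of the log2 difference 0.91, edgeR adjusted p = 5.91e-09). TMPRSS2, a serine protease of the luminal membrane, was at 803 and 436 CPM in VCaP and 1.09 and 6.23 CPM in RWPE (log2 7.40, SE 0.57). TRPM8, a cold-sensing cation channel, was at 213 and 489 CPM in VCaP and 0.0266 and 0.988 CPM in RWPE (log2 9.40, SE 0.83). For each of the 3 the VCaP libraries lay above the RWPE libraries, with no overlap. KLK4 was higher by log2 7.46, the metalloreductases STEAP2 and STEAP1 by 6.95 and 5.79, and the sugar transporter SLC45A3 by 6.14. PMEPA1 was higher by log2 3.10, CAMKK2 by 2.82 and NDRG1 by 2.39. The exception was FKBP5, a co-chaperone of steroid receptors, at 184 and 243 CPM in VCaP and 846 and 901 CPM in RWPE (log2 -2.03, SE 0.29, edgeR adjusted p = 1.40e-06). Both RWPE libraries lay above both VCaP libraries for FKBP5. STEAP4 rested on VCaP replicate 2: its level was 0.643 and 21.6 CPM in VCaP and 0.611 and 0.380 CPM in RWPE, and log2 4.49 fell to 0.36 (edgeR adjusted p = 0.72) without that library. TMEM79 and EAF2 did not pass the test.

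The size of the largest rises depends on RWPE replicate 2. For the 15 largest rises that library lay above RWPE replicate 1 in 15 of 15 genes, at 0.0935% to 0.355% of the VCaP mean, while replicate 1 lay at 0% to 0.123%. The log2 difference of KLK2 ran from 8.21 to 12.03 when 1 library was left out, that of ACPP from 8.16 to 11.06 and that of TRPM8 from 8.44 to 13.46, each highest without RWPE replicate 2. Whether transcripts at so low a level came from RWPE cells was not tested.

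ETS factors bind a GGAA core and include the oncogenes that are fused in prostate cancer. Of 25 tested of 26 listed, 7 were higher and 15 lower in VCaP, with a median log2 difference of -0.95. ERG was at 561 and 303 CPM in VCaP and 0.558 and 1.80 CPM in RWPE (log2 8.50, SE 0.55, edgeR adjusted p = 2.89e-12). It was at 1.44 and 2.32 CPM in LNCaP and 0.924 and 1.10 CPM in MDAPCa2a. Both VCaP libraries thus stood above all 6 libraries of the other lines, and the differences were log2 7.84 (SE 0.53) against LNCaP and 8.72 (SE 0.56) against MDAPCa2a. Other fusion partners of prostate cancer were lower in VCaP than in RWPE. ETV4 was at 0.643 and 0.699 CPM in VCaP and 56.8 and 66.2 CPM in RWPE (log2 -6.51, SE 0.45), and ETV5 at 0.351 and 0.458 CPM and 70.5 and 63.1 CPM (log2 -7.34, SE 0.72). ETV4 and ETV5 are also known as genes induced by growth factor signalling through ERK. ETV1 was lower at log2 -1.48 (SE 0.30), at 3.07 and 2.46 CPM in VCaP, and stood at 313 and 276 CPM in LNCaP and 1215 and 1039 CPM in MDAPCa2a. ETS1 and ELF4 were lower at log2 -4.53 and -4.92. The epithelial factor EHF was higher (log2 3.20), as was ELF5, which had 0 reads in RWPE and was at least 179.6-fold higher in VCaP against a limit of 3 reads over the group. FLI1, the closest relative of ERG, was at 0.0584 and 0.0964 CPM in VCaP and 1.62 and 1.95 CPM in RWPE.

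Of 16 genes reported to be high in prostate tumours with an ERG fusion, 12 were higher in VCaP and 3 lower, with a median log2 difference of 4.02. CRISP3, a secreted cysteine-rich protein, was at 635 and 227 CPM in VCaP and 0.0532 and 1.22 CPM in RWPE (log2 9.38, SE 0.76). PLA1A, a phosphatidylserine lipase, was at 233 and 125 CPM in VCaP and 0.0266 and 0.608 CPM in RWPE (log2 9.09, SE 0.73). TDRD1, a Tudor-domain protein of the germ line, was at 63.5 and 76.05 CPM in VCaP and 0 and 0.304 CPM in RWPE (log2 8.77, SE 0.57). None of the 3 overlapped between the lines, which the naming rule required. They were also higher in VCaP than in LNCaP, by log2 6.44, 5.88 and 6.76, and than in MDAPCa2a, by 8.44, 8.17 and 8.63, each with an edgeR adjusted p below 0.05. LEF1, a Wnt effector, was higher by log2 7.85 (SE 0.33). The 3 lower members were ITGB4, PLAU and PLAT, a laminin receptor chain and both plasminogen activators.

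**Figure D3:**
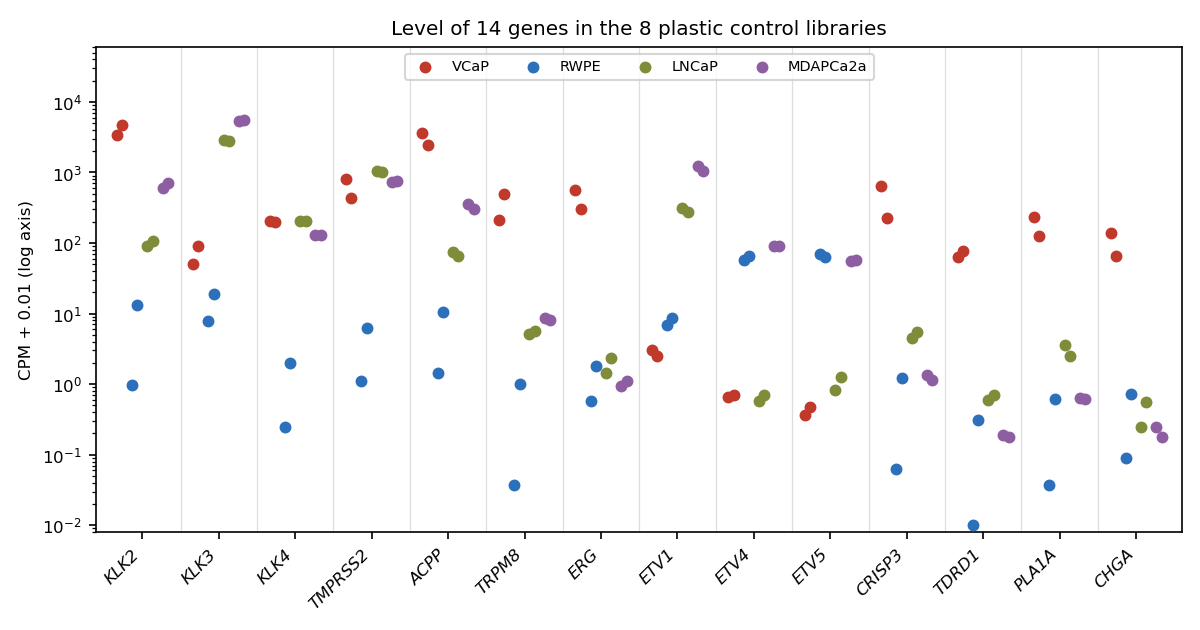
CPM plus 0.01 on a log axis for 14 genes in the 8 plastic control libraries of VCaP (red), RWPE (blue), LNCaP (green) and MDAPCa2a (purple), 1 point per library. ERG, CRISP3, PLA1A, TDRD1 and CHGA are highest in both VCaP libraries, while KLK3 and ETV1 are higher in LNCaP and MDAPCa2a than in VCaP.

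Genes of the attachment of basal cells were lower in VCaP. Of 21 hemidesmosome and basement-membrane genes, 3 were higher and 14 lower, with a median log2 difference of -2.59. COL17A1, a collagen that spans the hemidesmosome, was at 0.906 and 1.06 CPM in VCaP and 1541 and 1363 CPM in RWPE (log2 -10.52, SE 0.74). ITGB4, the beta chain of the hemidesmosomal integrin, was at 5.32 and 8.25 CPM in VCaP and 1853 and 1671 CPM in RWPE (log2 -8.02, SE 0.62). Both genes were well expressed in RWPE and far lower in VCaP. LAMB3, a chain of laminin 332, was lower at log2 -7.26, and the linker PLEC at -3.25. The laminin chain LAMB2 was higher (log2 3.31, SE 0.34). The other rises, CD151 (log2 0.68) and LAMB1 (log2 0.81), lost their call when either RWPE replicate 1 (log2 0.55 and 0.62) or VCaP replicate 2 (log2 0.61 and 0.84) was left out, and LAMB1 also without VCaP replicate 1 (log2 0.76).

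Of 13 tested desmosome genes, 2 were higher and 9 lower, with a median log2 difference of -1.62. DSG3, the desmoglein of basal keratinocytes, was at 0.146 and 0.0482 CPM in VCaP and 126 and 127 CPM in RWPE (log2 -10.34, SE 0.53). Desmoplakin (DSP) was at 82.6 and 92.9 CPM in VCaP and 781 and 754 CPM in RWPE (log2 -3.13, SE 0.25), so its transcript stayed well detected in VCaP. DSC2 was higher in VCaP (log2 1.48). Of 23 cadherins, mesenchymal markers and factors of the epithelial to mesenchymal transition, 5 were higher and 13 lower (median log2 difference -1.40). E-cadherin (CDH1) was at 334 and 329 CPM in VCaP and 543 and 503 CPM in RWPE (log2 -0.66, SE 0.21, edgeR adjusted p = 0.00736), a small fall. The tight-junction claudins CLDN3 and CLDN4 were higher, by log2 5.80 and 2.07. The mesenchymal factors TWIST1 and TWIST2 were lower, at log2 -6.28 and -6.27, as was the intermediate filament gene VIM. VIM was at 12.01 and 15.7 CPM in VCaP and 233 and 195 CPM in RWPE (log2 -3.95, SE 0.44). Of 20 integrin subunits, 3 were higher, 9 lower and 8 not called, with a median log2 difference of -0.59. ITGA5, the fibronectin receptor chain, was lower at log2 -4.75 and ITGB6 at -5.63.

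Of 39 tested squamous differentiation and S100 genes, 3 were higher and 34 lower in VCaP, with a median log2 difference of -6.44, or -5.03 with the genes without reads in a group set to their limit. S100A14 was at 0.409 and 0.506 CPM in VCaP and 645 and 787 CPM in RWPE (log2 -10.59, SE 0.84). SFN, the epithelial 14-3-3 sigma protein, was at 1.72 and 2.17 CPM in VCaP and 760.2 and 727 CPM in RWPE (log2 -8.57, SE 0.52). SERPINB5, the serpin maspin, was at 0.497 and 0.579 CPM in VCaP and 116 and 125 CPM in RWPE (log2 -7.79, SE 0.41). For these 3 genes both VCaP libraries lay far under both RWPE libraries, with no overlap. ANXA8 and the cornified-envelope gene SPRR1B had 0 reads in both VCaP libraries and were at least 322-fold and 248-fold lower. ANXA2 was at 32.2 and 82.4 CPM in VCaP and 899 and 968 CPM in RWPE.

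Of 15 EGF receptors and ligands, 2 were higher and 10 lower in VCaP, with a median log2 difference of -1.67. Only 1 was higher without RWPE replicate 1 or without VCaP replicate 2. The RWPE medium held added EGF. EGFR was at 6.08 and 21.7 CPM in VCaP and 430.2 and 364 CPM in RWPE (log2 -4.83, SE 0.50, edgeR adjusted p = 8.02e-09). The ligand epiregulin (EREG) was at 0.0292 and 0.0964 CPM in VCaP and 65.7 and 53.5 CPM in RWPE (log2 -9.73, SE 0.68). Amphiregulin (AREG) had 2 reads in VCaP against 2225 in RWPE, a ratio of 1092 times (302 to 9026), where the bracket is the exact 95% interval for counting error. Neuregulin 1 (NRG1) had 0 reads in VCaP and was at least 136-fold lower. The receptor and 3 of its family's ligands were thus all lower in VCaP. Of 22 YAP-pathway factors, YAP targets and caveolar genes, 1 was higher and 14 lower, with a median log2 difference of -2.83. CAV1, the caveolar coat protein, was at 1.23 and 0.964 CPM in VCaP and 128 and 165 CPM in RWPE (log2 -7.07, SE 0.70), and the receptor kinase AXL was lower at log2 -7.36. The higher member was THBS1, a matrix protein at 358 and 819 CPM in VCaP and 164 and 243 CPM in RWPE (log2 1.53), which lost its call without RWPE replicate 1 (log2 1.25) or without VCaP replicate 2 (log2 0.80).

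Neuroendocrine and neuronal genes were mostly higher in VCaP. Of 21 tested of 27 listed, 16 were higher and 3 lower, with a median log2 difference of 4.99. CHGA, the granule protein chromogranin A, was at 139.7 and 65.8 CPM in VCaP and 0.0797 and 0.709 CPM in RWPE (log2 7.99, SE 0.80). SCG3, a secretogranin, was at 49.8 and 56.7 CPM in VCaP and 0.0266 and 0.253 CPM in RWPE (log2 8.50, SE 0.57). INSM1, a zinc-finger factor of neuroendocrine cells, was at 42.4 and 25.5 CPM in VCaP and 0.0266 and 0.0760 CPM in RWPE (log2 9.23, SE 0.66). Both VCaP libraries of each gene stood above both RWPE libraries. Against LNCaP and MDAPCa2a, CHGA was higher by log2 8.02 and 8.97, and INSM1 by 8.10 and 6.67. The synaptic vesicle gene SYT1 went the other way, at 0.0292 and 0.0723 CPM in VCaP and 7.02 and 6.51 CPM in RWPE (log2 -6.89, SE 0.93). The chromogranin level of VCaP replicate 1 was more than 2-fold that of replicate 2.

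Of the 15 largest rises among genes with at least 50 CPM in the higher line, 14 are named here. The potassium channels KCNJ3 and KCNH6 were higher by log2 10.07 and 9.78. The calcium sensor SCGN was higher by 9.87 and the complexin CPLX2 by 9.83. CADPS, a factor of dense-core vesicle release, was at 50.4 and 91.5 CPM in VCaP and 0.0266 and 0.203 CPM in RWPE. NPY, neuropeptide Y, was at 920.1 and 409 CPM in VCaP and 0 and 2.36 CPM in RWPE (log2 9.12, SE 1.04). TUNAR, a noncoding RNA, had 3 reads in RWPE against 3909 in VCaP, a ratio of 1327 times (454 to 6437) with an exact 95% counting interval. The others were CTNND2 (delta-catenin 2, log2 9.33), LRTM2 (9.55), SI (sucrase-isomaltase, 9.37) and ZNF385B (9.12), besides KLK2, TRPM8 and CRISP3. All 14 were also higher in VCaP than in LNCaP and than in MDAPCa2a. The genes were picked by the same VCaP libraries that these tests use, so part of this follows from the choice. Over all 17313 genes, 2008 were above all 3 lines. Among the 15 largest falls were INPP5D, the phosphatase SHIP1 (log2 -10.09), the tensin TNS4 (-10.04), and RAB38, B3GNT3 and LCN2. The last 3 had 2 or 3 reads in VCaP, with RWPE over VCaP ratios of 1735 times (593 to 8417), 1911 times (529 to 15789) and 2478 times (848 to 12019.6) and exact 95% counting intervals. The others named were basal, squamous, desmosome and hemidesmosome genes given above, the luminal keratin KRT7, and MIR205HG.

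Genes of antigen presentation and of the interferon response were lower in VCaP. Of 24 antigen presentation genes, 3 were higher and 16 lower, with a median log2 difference of -1.87. HLA-E, a class I heavy chain, was at 5.23 and 3.45 CPM in VCaP and 191 and 201 CPM in RWPE (log2 -5.50, SE 0.46, edgeR adjusted p = 2.54e-10), and HLA-F was lower at log2 -5.91. Reads of class I genes can be shared between these close paralogs, and alleles that differ from the reference can lose reads. HLA-E was lower in VCaP than in the other lines too, at log2 -3.50 against LNCaP and -1.99 against MDAPCa2a. The members that rose were the chaperones CALR (log2 2.09) and PDIA3 (0.83), which also serve general protein folding, and the class II chain HLA-DRB1, at 8.85 and 15.4 CPM in VCaP and 0.691 and 0.355 CPM in RWPE.

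Of 28 interferon-stimulated genes, 0 were higher and 26 lower, with a median log2 difference of -5.07. OASL, of the family of oligoadenylate synthetases, was at 0.204 and 0.265 CPM in VCaP and 175 and 285 CPM in RWPE (log2 -9.89, SE 0.86). ISG15, a ubiquitin-like modifier, was at 9.55 and 10.1 CPM in VCaP and 232 and 391 CPM in RWPE (log2 -4.99, SE 0.60). Both RWPE libraries exceeded both VCaP libraries in each gene, and RWPE replicate 2 was the highest. OAS3 and STAT2 did not pass the test. Of 28 tested NF-kappaB targets, cytokines and defence genes, 2 were higher and 17 lower, with a median log2 difference of -1.78. The cytokine IL18 was at 0.0584 and 0.0482 CPM in VCaP and 39.3 and 57.4 CPM in RWPE (log2 -9.72, SE 0.57), and IL1A was lower at log2 -7.67. NFKB2, a subunit of the factor itself, was at 34.4 and 40.05 CPM in VCaP and 108 and 91.8 CPM in RWPE (log2 -1.42, SE 0.34). The higher count of 2 in this list was 1 without RWPE replicate 1 or without VCaP replicate 2.

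Of 28 tested genes reported as promoter-methylated in prostate cancer, 6 were higher and 19 lower in VCaP, with a median log2 difference of -3.52; methylation itself was not measured in these samples. GSTP1, a glutathione transferase whose promoter is a known target of methylation in this cancer, was at 2.54 and 3.28 CPM in VCaP and 878 and 878 CPM in RWPE (log2 -8.23, SE 0.59, edgeR adjusted p = 1.64e-11). Its 250 upstream bases are shown for their CG content, with each CG in capitals, from RefSeq on GRCh38.p14, plus strand, chr11:67583562-67583811.
GSTP1: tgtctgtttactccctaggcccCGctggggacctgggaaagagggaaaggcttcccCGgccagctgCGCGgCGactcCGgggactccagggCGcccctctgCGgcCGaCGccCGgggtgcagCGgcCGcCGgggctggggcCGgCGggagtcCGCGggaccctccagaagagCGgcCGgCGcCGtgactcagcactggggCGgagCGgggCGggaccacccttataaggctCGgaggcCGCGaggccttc
The sequence holds 28 CG pairs, against a median of 11 over 35116 upstream sequences of that length, and 15.9% of them hold as many or more. The level of GSTP1 was 3.03 and 2.32 CPM in LNCaP and 1.40 and 1.63 CPM in MDAPCa2a, and neither test against VCaP was passed, with log2 0.13 (SE 0.49) against LNCaP and 0.94 (SE 0.52) against MDAPCa2a. CCND2, cyclin D2, was at 0.263 and 0.410 CPM in VCaP and 134 and 122 CPM in RWPE (log2 -8.53, SE 0.41). TIMP3, an inhibitor of metalloproteinases, was at 0.351 and 0.241 CPM in VCaP and 57.97 and 78.4 CPM in RWPE (log2 -7.84, SE 0.57). Both were lower in both VCaP libraries. Other members were higher: RASSF1 by log2 1.71 and DAPK1 by 3.70. AOX1, an aldehyde oxidase, was at 10.9 and 167 CPM in VCaP and 3.38 and 5.73 CPM in RWPE, and its log2 difference of 4.29 fell to 1.24 (edgeR adjusted p = 0.0929) without VCaP replicate 2.

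Of 30 tested glutathione, oxidative-stress and metal-binding genes, 14 were higher and 10 lower. NQO1, a quinone reductase and target of NRF2, was at 6.34 and 7.57 CPM in VCaP and 129.9 and 127 CPM in RWPE (log2 -4.21, SE 0.24). The metallothionein MT2A was lower at log2 -3.37. The zinc transporter SLC30A4 was at 91.3 and 194 CPM in VCaP and 4.78 and 5.60 CPM in RWPE (log2 4.78, SE 0.41), and the zinc importer SLC39A6 was higher by log2 3.73. The extracellular peroxidase GPX3 was higher by 4.72. Metal and redox genes thus split in direction, with a list median of 0.43 on the log2 scale.

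Of 22 tested steroid enzymes of 29 listed, 11 were higher and 7 lower, with a median log2 difference of 1.89. UGT2B15, which couples androgens to glucuronic acid, was at 18.99 and 14.6 CPM in VCaP and 0.292 and 0.532 CPM in RWPE (log2 5.32, SE 0.63), and its relative UGT2B4 was higher by 7.52. HSD17B6, an oxidoreductase of androgen metabolism, was at 20.2 and 24.6 CPM in VCaP and 1.09 and 1.17 CPM in RWPE (log2 4.30, SE 0.40). The aldo-keto reductases AKR1C1 and AKR1C2 and the sulfotransferase SULT2B1 were lower, at log2 -2.44, -3.74 and -3.24. The UGT2B and AKR1C genes are families of close paralogs whose reads could be split in counting.

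Of 22 tested surface antigens used as drug or imaging targets, 9 were higher and 8 lower, with a median log2 difference of 0.66. STEAP1 was at 234 and 316 CPM in VCaP and 3.72 and 6.21 CPM in RWPE (log2 5.79, SE 0.37). GRPR, the receptor of gastrin-releasing peptide, was at 46.7 and 53.1 CPM in VCaP and 0.106 and 0.279 CPM in RWPE (log2 7.97, SE 0.48). Both genes were higher in both VCaP libraries, with no overlap. The death receptor TNFRSF10B was lower in VCaP at log2 -2.93 (SE 0.22), and mesothelin (MSLN) at -7.08.

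Genes of G1 control split much as all genes did. Of 24 such genes, 8 were higher and 9 lower, with a median log2 difference of -0.12. CCND1, cyclin D1, was at 637 and 799 CPM in VCaP and 175 and 219 CPM in RWPE (log2 1.87, SE 0.24), opposite to its relative CCND2. The inhibitor CDKN1A, a p53 target, was at 56.8 and 112 CPM in VCaP and 1249 and 1212 CPM in RWPE (log2 -3.86, SE 0.34). CDKN2B and CDK6 were lower at log2 -5.49 and -5.28, and CCNE2 and E2F2 higher by 2.08 and 2.42. Of 36 replication and mitosis genes, 12 were higher, 2 lower and 22 not called, with a median log2 difference of 0.36. The share called was 38.9%, against 62.4% of all genes, and the share higher was near the 32.1% of all genes. CDK1, the kinase of mitotic entry, was at 98.3 and 156 CPM in VCaP and 38.8 and 36.4 CPM in RWPE (log2 1.76, SE 0.45). CDC45 was higher by log2 2.16 and the licensing factor CDT1 lower at -1.90. The count of 12 higher was 7 without either RWPE library and 4 without VCaP replicate 2. Without that replicate 4 members were lower, against 2, and it had the higher level of CDK1 and CDC45 of the VCaP pair.

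Lipid synthesis genes were mostly higher in VCaP, whose medium held serum. Of 32 cholesterol and fatty acid synthesis genes, 25 were higher and 3 lower, with a median log2 difference of 1.24. FASN, fatty acid synthase, was at 2833 and 3374 CPM in VCaP and 487 and 542 CPM in RWPE (log2 2.59, SE 0.29). HMGCS1, which makes HMG-CoA for sterol synthesis, was at 372 and 519 CPM in VCaP and 42.6 and 43.4 CPM in RWPE (log2 3.37, SE 0.29). AMACR, a racemase of branched fatty acids and a tissue marker of prostate cancer, was at 46.2 and 50.97 CPM in VCaP and 4.09 and 4.23 CPM in RWPE (log2 3.54, SE 0.30). All 3 were higher in both VCaP libraries. INSIG1, a sterol-regulated retention protein, was higher by log2 3.30. The members that fell included the mevalonate enzyme MVD (log2 -1.43) and ACACB (-1.19). FDPS, SREBF1 and SCD were among the members that did not pass the test.

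Of 28 glycolysis and hypoxia genes, 7 were higher and 14 lower, with a median log2 difference of -0.54. SLC16A3, the lactate exporter MCT4, was at 5.96 and 6.49 CPM in VCaP and 381 and 426 CPM in RWPE (log2 -6.02, SE 0.69). VEGFA was at 27.1 and 28.2 CPM in VCaP and 197 and 158 CPM in RWPE (log2 -2.68, SE 0.38). BNIP3L, a mitophagy receptor, was at 0.555 and 0.747 CPM in VCaP and 39.9 and 37.4 CPM in RWPE, and was also lower than in LNCaP (log2 -7.71) and MDAPCa2a (log2 -6.00). The muscle isoform of phosphofructokinase, PFKM, was higher (log2 1.84), and GAPDH did not pass the test (log2 -0.44, SE 0.19).

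VCaP came from a bone metastasis, and genes of bone were counted for that reason. Of 21 tested osteomimicry and bone-turnover genes of 29 listed, 6 were higher and 9 lower, with a median log2 difference of -0.34. BMP7, a bone morphogenetic protein, was at 70.1 and 90.8 CPM in VCaP and 5.42 and 11.3 CPM in RWPE (log2 3.26, SE 0.31). GREM1, an antagonist of such proteins, was at 32.02 and 39.6 CPM in VCaP and 0.558 and 1.34 CPM in RWPE (log2 5.22, SE 0.53). Both were also above MDAPCa2a, by log2 8.83 and 8.07. DKK1, a Wnt inhibitor, had 0 reads in VCaP and was at least 296-fold lower. PTHLH, the parathyroid hormone-related protein, was at 0.0292 and 0.0723 CPM in VCaP and 8.67 and 10.8 CPM in RWPE (log2 -7.42, SE 0.77).

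Of 29 tested matrix proteases, plasminogen genes and inhibitors, 7 were higher and 15 lower, with a median log2 difference of -0.96. Hepsin (HPN), a serine protease of the cell surface, was at 174 and 104 CPM in VCaP and 0.159 and 1.62 CPM in RWPE (log2 7.26, SE 0.57). Urokinase (PLAU) was at 0.438 and 1.25 CPM in VCaP and 94.1 and 62.4 CPM in RWPE (log2 -6.49, SE 0.82). Hepsin was thus higher and urokinase lower in both VCaP libraries. The inhibitor SPINT2 did not pass the test (log2 -0.17, SE 0.20).

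Of 36 tested HOX genes, 6 were higher and 19 lower, with a median log2 difference of -1.53. Besides HOXB13, the posterior gene HOXA13 was higher, at 100.2 and 85.6 CPM in VCaP and 7.04 and 5.29 CPM in RWPE (log2 3.91, SE 0.28). HOXD10 was at 0.0584 and 0.0723 CPM in VCaP and 21.5 and 22.04 CPM in RWPE (log2 -8.27, SE 0.48), and HOXD9 was lower at log2 -7.36. HOXD11 had 0 reads in VCaP and was at least 478-fold lower. The HOXD genes named here were low and the group 13 genes of clusters A and B high in VCaP. Of 34 tested Notch, Wnt and TGF-beta pathway genes, 8 were higher and 17 lower, with a median log2 difference of -0.88. The count of higher members was 5 without either RWPE library. NOTCH1 was at 10.9 and 17.2 CPM in VCaP and 689 and 676 CPM in RWPE (log2 -5.60, SE 0.33). The ligand TGFB1 and the matrix target TGFBI were lower at log2 -6.91 and -7.84. The Wnt feedback gene AXIN2 was higher by log2 4.74, as was LEF1, given above.

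Of 19 tested long noncoding RNAs studied in prostate cancer, 10 were higher and 6 lower, with a median log2 difference of 1.41. The count of higher members was 6 without VCaP replicate 1. PCAT1 was at 10.3 and 12.1 CPM in VCaP and 0.0797 and 0.304 CPM in RWPE (log2 5.82, SE 0.51). PART1, an androgen-induced transcript, was at 19.02 and 25.7 CPM in VCaP and 0.239 and 0.279 CPM in RWPE (log2 6.41, SE 0.43). MIR205HG, the host transcript of a basal-cell microRNA, was at 0.146 and 0.0482 CPM in VCaP and 132 and 137 CPM in RWPE (log2 -10.43, SE 0.62). The imprinted RNA H19 was lower at log2 -9.34. NEAT1 was at 2026 and 932 CPM in VCaP and 492 and 397 CPM in RWPE, and its call at log2 1.73 was lost without VCaP replicate 1 (log2 1.07) and without RWPE replicate 2 (log2 1.59).

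Markers of other cell types were low, with exceptions that are given here as levels. Summed over 5 basal markers the level was 10.1 and 13.0 CPM in VCaP and 10044 and 10860 CPM in RWPE, and over 7 luminal markers 10108 and 9467 CPM in VCaP and 1296 and 1483 CPM in RWPE. The 5 neuroendocrine markers summed to 322 and 252 CPM in VCaP and 2.45 and 2.66 CPM in RWPE. By these sums RWPE held mainly basal markers and VCaP luminal ones. Of the 7 luminal markers 5 were higher in VCaP, KRT18 was lower and KRT8 was not called. Most of the luminal sum in RWPE came from KRT8, at 485 and 550 CPM, and KRT18, at 784 and 865 CPM. The 7 fibroblast markers summed to 17.2 and 45.1 CPM in VCaP and 33.7 and 27.9 CPM in RWPE, the 6 blood and immune markers to at most 4.44 CPM and the 4 endothelial markers to at most 3.76 CPM in any of the 4 libraries. The muscle myosins MYH2 and MYH7 had 0 reads in all 4. Of the fibroblast genes, lumican (LUM) was at 7.27 and 33.8 CPM in VCaP and 0.106 and 0.0507 CPM in RWPE. The 7 liver markers summed to 71.1 and 159 CPM in VCaP and 15.4 and 14.3 CPM in RWPE, with albumin at 54.4 and 130.3 CPM in VCaP. Their part in the differences was not tested.

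The same lines in control medium on ACP give the comparison in libraries that it did not use: 2 of VCaP with 21424529 and 23012911 counts and 2 of RWPE with 31486379 and 20575779 counts, all at day 4. There 10860 genes (62.7%) were called, 5266 higher (30.4%) and 5594 lower (32.3%) in VCaP. Of the genes called on plastic 9349 were called in the same direction on ACP, which is 86.5% of the plastic calls and 86.1% of the ACP calls, and 8 were called in opposite directions. Of the 4871 genes with at least a 4-fold difference on plastic, 4459 (91.5%) were called in the same direction on ACP. Across the 17313 genes the log2 differences on both surfaces had a Pearson correlation of 0.915, over genes that are not independent and with cell lines in common. Among the lists, 15 of the 15 lower basal genes and 26 of the 26 lower interferon-stimulated genes were called in the same direction. On ACP 23 androgen-induced genes were higher and 2 lower, and 24 kept their plastic call and direction. Other lists agreed less. Oxidative-stress and metal genes had 14 higher and 10 lower on plastic, and 17 of these kept their direction. Noncoding RNAs had 10 higher and 6 lower, and 13 did. KRT5 was at 4.33 and 12.2 CPM in VCaP and 10166 and 8106 CPM in RWPE on ACP, and KLK2 at 3808 and 4167 CPM in VCaP and 1.06 and 11.8 CPM in RWPE. ERG was at 219 and 268 CPM in VCaP and 0.239 and 1.56 CPM in RWPE there, with a log2 difference of 8.20 (SE 0.57). On each surface both VCaP libraries lay below both RWPE libraries for KRT5 and above them for KLK2 and ERG.

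**Figure D4:**
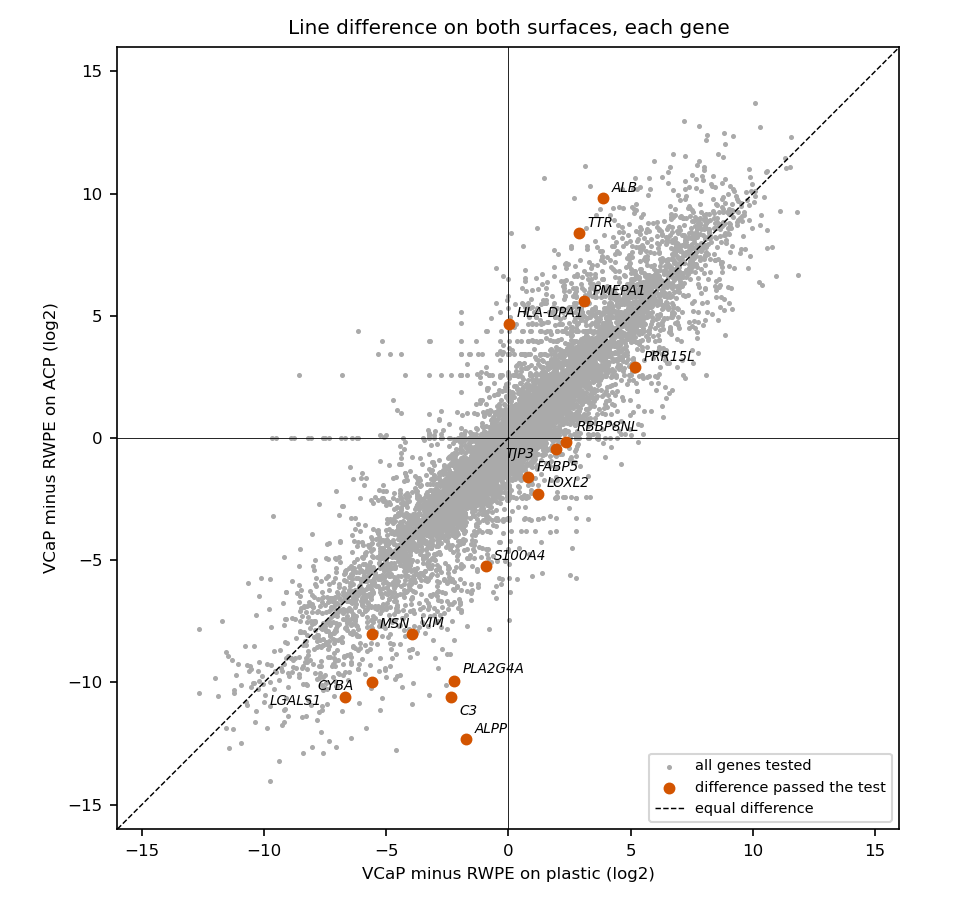
Log2 difference of VCaP minus RWPE on plastic (horizontal) and on ACP (vertical), 1 point per gene tested, with the dashed line marking equal differences. Orange points are the 17 genes whose difference itself differed between surfaces by the interaction test; most other genes lie near the line.

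A test of the interaction of line and surface found 17 genes (0.0982%) at an adjusted p below 0.05, 13 with a higher and 4 with a lower difference on plastic. Before adjustment 1340 genes lay below 0.05, and with DESeq2 the adjusted count was 82. The count was 9 without RWPE plastic replicate 1, 11 without its replicate 2, 7 without VCaP plastic replicate 1 and 99 without its replicate 2. It was 1 without RWPE ACP replicate 1, 8 without its replicate 2, 5 without VCaP ACP replicate 1 and 2 without its replicate 2. Several of these genes were lower in VCaP on ACP than on plastic, while in RWPE they fell less, as VIM did, or rose, as C3 did. C3, the complement component, was at 3.59 and 4.12 CPM in VCaP and 22.9 and 16.2 CPM in RWPE on plastic, and at 0.0470 and 0.0433 CPM and 83.4 and 68.8 CPM on ACP (plastic minus ACP log2 8.24, SE 0.67, edgeR adjusted p = 1.54e-07). VIM was at 0.470 and 0.346 CPM in VCaP and 111 and 99.4 CPM in RWPE on ACP, against 12.01 and 15.7 CPM and 233 and 195 CPM on plastic (log2 4.06, SE 0.71). LGALS1, the lectin galectin-1, was at 1.96 and 2.07 CPM in VCaP on plastic and 0.0470 and 0.303 CPM on ACP. So VCaP held more of these transcripts on plastic, still under RWPE. On ACP C3 had 1 read in each VCaP library, so the size of its value is uncertain. LNCaP and MDAPCa2a on plastic held C3 at 3.83 and 3.18 CPM and 4.26 and 2.18 CPM and CYBA at 0.614 and 1.06 CPM and 0.894 and 0.746 CPM, while VCaP on plastic held 3.59 and 4.12 CPM and 1.08 and 0.964 CPM. These levels of C3 and CYBA in 3 lines lay close together, as those of fibrinogen did. LGALS1 was at 2.41 and 2.76 CPM in LNCaP and 2.80 and 3.18 CPM in MDAPCa2a on plastic. VIM was less alike there, at 26.0 and 24.6 CPM in LNCaP and 7.18 and 5.41 CPM in MDAPCa2a. The cause of these levels was not tested.

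For other genes of the interaction it was RWPE that differed. Albumin (ALB) was at 54.4 and 130.3 CPM in VCaP and 5.85 and 6.61 CPM in RWPE on plastic, and at 243 and 133 CPM and 0.0682 and 0.390 CPM on ACP (plastic minus ACP log2 -5.92, SE 1.00, edgeR adjusted p = 0.0128). Fibrinogen, with 0 reads on ACP, shared this pattern in RWPE, and the 7 liver markers together summed to 0.0682 and 0.536 CPM in RWPE on ACP, against 15.4 and 14.3 CPM on plastic. The transporter of thyroxine TTR followed albumin (log2 -5.51, SE 1.04). PMEPA1, an androgen and TGF-beta target, was at 127 and 197 CPM in RWPE on plastic and 23.7 and 25.4 CPM on ACP, while VCaP was at 1245 and 1529 CPM and 1054 and 1332 CPM (log2 -2.50, SE 0.44). FABP5, a fatty acid carrier, was at 16.3 and 18.2 CPM in RWPE on plastic and 183 and 167 CPM on ACP. The plastic and ACP libraries differ in surface and in the time their labels give, and these cannot be told apart.

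**Figure D5:**
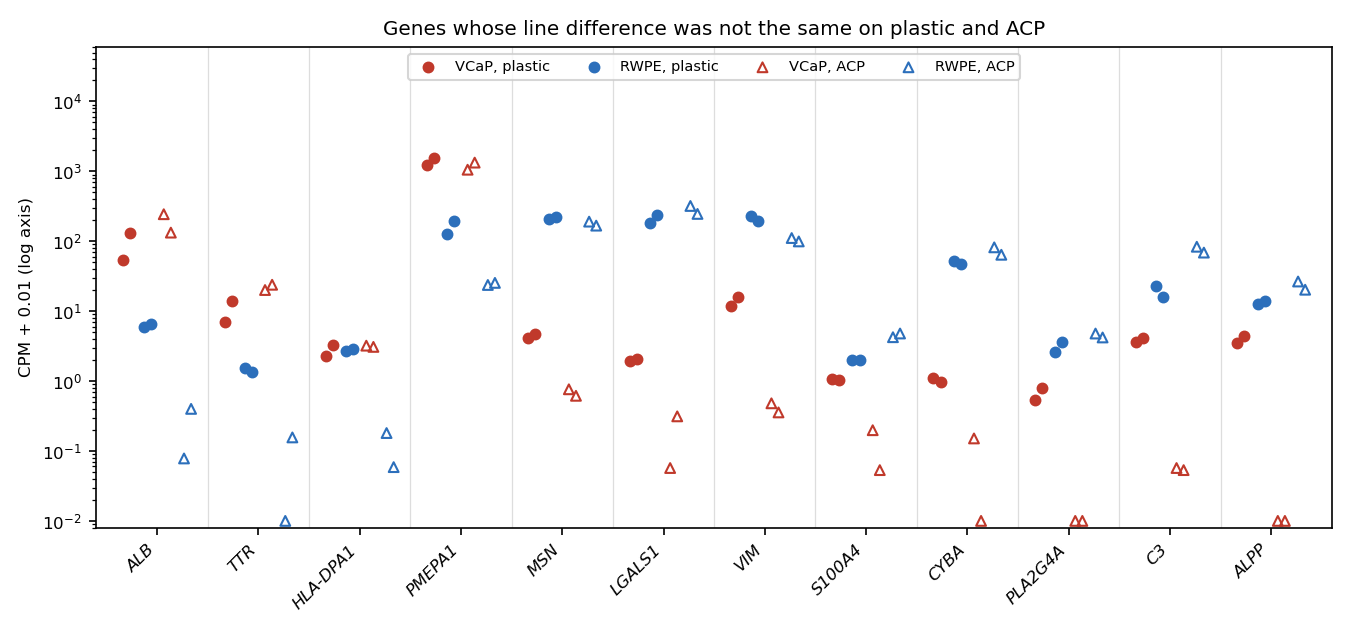
CPM plus 0.01 on a log axis for 12 of the 17 genes with a line difference that changed between surfaces, in 2 libraries each of VCaP (red) and RWPE (blue) on plastic (filled circles) and ACP (open triangles). C3, CYBA, PLA2G4A and ALPP are lower in VCaP on ACP than in VCaP on plastic, and ALB, TTR and PMEPA1 are lower in RWPE on ACP than in RWPE on plastic.

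The plastic libraries of LNCaP and MDAPCa2a, 2 each, show which differences were particular to VCaP. VCaP differed from LNCaP in 9124 genes (52.7%) and from MDAPCa2a in 9077 (52.4%). In 2008 genes VCaP was called above all 3 other lines, 912 of them by at least 4-fold in each comparison, and in 1647 it was called below all 3, 297 of them by at least 4-fold. These 3 comparisons share the VCaP libraries. Genes named as large rises or falls were picked with those libraries, so their place above or below all 3 partly follows from the choice. Of the 247 genes that the naming rule took in, 60 were above and 27 below all 3 lines. Above all 3 were ERG, CRISP3, TDRD1, PLA1A, KLK2, ACPP, TRPM8, the neuroendocrine genes CHGA, SCG3 and INSM1, BMP7, GREM1 and HOXA13. Below all 3 were HLA-E, EGFR, NOTCH1, CDKN1A, ISG15, SFN, SERPINB5, NQO1, VEGFA and BNIP3L. The basal genes KRT5, KRT14 and TP63 and the transferase GSTP1 are not on that list. KRT5 was at 5.06 and 13.04 CPM in LNCaP and 5.96 and 5.19 CPM in MDAPCa2a, and VCaP minus these lines was log2 -1.25 (SE 1.19) and -0.55 (SE 1.21). FOXA1 was above LNCaP by log2 0.72 (SE 0.21, edgeR adjusted p = 0.00473), while VCaP minus MDAPCa2a was -0.10 (SE 0.20). For HOXB13 these differences were 0.21 (SE 0.25) and -0.16 (SE 0.25), and neither passed the test.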

How the data were processed

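The authors deposited a table of read counts per gene, made from poly(A)-selected RNA; STAR, HTSeq and the build hg19 are named per the submitters' processing notes, and the counting of strand and of reads shared between genes is not given in the sources used here. Samples were grouped by the cell line, medium and surface of their labels. The counts were tested with edgeR 4.0.16 in R 4.3.3 (trimmed-mean scaling, filterByExpr with a minimum count of 10, quasi-likelihood F test, Benjamini-Hochberg threshold 0.05) in 1 fit of all 34 libraries in 17 groups, which share 1 estimate of the spread with 17 residual degrees of freedom. The standard error is the log2 difference divided by the square root of F. The 12 genes with implausible RWPE counts were left out. DESeq2 1.42.0 and other settings were alternatives. The scripts were tested on simulated data. The gene lists and the comparisons were chosen with earlier results of these data known. Named genes were the 15 largest differences each way of at least 50 CPM, the 3 largest each way and the most abundant member of each list at 5 CPM or more, and any member of the basal, luminal, androgen and ETS lists; members named for missing the test, PLAT, the fibrinogen chains and FABP5 were chosen after their values were seen. The largest differences were taken only from called genes without overlap between the libraries of both lines. For those genes a lack of overlap is part of the choice and no added result. Intervals and limits for genes with few reads, at 95% and 3 reads, cover counting error only. Some genes that the naming rule took in, 1 of the 15 largest rises among them, are not reported here. Upstream sequences came from RefSeq tables of GRCh38.p14 and matched 3 of 3 symbols, while the build of the counts is hg19, so only symbols link them.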

Additional observations from a re-analysis of the deposited data

Results flagged for a closer look

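The difference between the lines differed between plastic and ACP for 8 named genes, by edgeR's test of the interaction of line and surface with 2 libraries in each of 4 groups. On the plastic minus ACP scale the log2 values were -5.92 for ALB, -5.51 for TTR and -2.50 for PMEPA1, with edgeR adjusted p = 0.0128, 0.0302 and 0.0143. For these 3 the RWPE libraries were lower on ACP than on plastic. They were 8.24 for C3, 4.06 for VIM, 3.89 for LGALS1 and 4.38 for CYBA, with edgeR adjusted p = 1.54e-07, 0.0128, 0.0479 and 0.0183. For these 4 the VCaP libraries were lower on ACP. In RWPE, C3, LGALS1 and CYBA were higher on ACP than on plastic, and VIM was lower. CYBA was at 0.141 and 0 CPM in VCaP on ACP, from 3 and 0 reads, and C3 had 1 read in each VCaP library there. TTR had 0 and 3 reads in RWPE on ACP. ALB had 2 and 8 reads in RWPE on ACP. LGALS1 had 1 and 7 reads and VIM 10 and 8 reads in VCaP on ACP. The sizes fitted for CYBA, C3 and TTR are therefore uncertain, and those for ALB, LGALS1 and VIM also rest on few reads. ALPP, placental alkaline phosphatase, was at 3.53 and 4.36 CPM in VCaP on plastic and had 0 reads in both VCaP libraries on ACP, so its fitted value of 10.59 depends on the prior count and is no bound. RWPE held ALPP at 12.5 and 13.9 CPM on plastic and 26.5 and 20.2 CPM on ACP, LNCaP at 1.23 and 3.40 CPM and MDAPCa2a at 1.07 and 1.49 CPM on plastic.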

How the results depend on the processing

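The count of 10802 genes that differed between VCaP and RWPE on plastic was 10171 to 11548 under the other normalization, filter, tool and sample choices, 8046 with a minimum of 1 on the log2 scale, and 9279 to 9763 with 1 library left out. The counts on ACP and against LNCaP and MDAPCa2a also stayed within 1.5 times of their values with these choices. The count of 17 for the difference between surfaces did not: it was 82 with DESeq2, 32 with the date-like genes kept and 84 with no count filter, and 1 to 99 with 1 library left out. Replicate numbers do not pair the samples (correlation of deviations 0.0102 on plastic and 0.00337 on ACP), and with a replicate block the counts were 10972 on plastic and 21 between surfaces. Of 247 named genes 235 were called, and 220 of those kept their call in every setting. EAF2, not called at log2 -0.40, was 0.32 without VCaP replicate 1 and was called at -2.02 without VCaP replicate 2. KRT20, not called at 2.76, was 0 without VCaP replicate 2 and 3.53 without VCaP replicate 1. The causes were not tested. Counts within the gene lists were recomputed under these settings, chosen after seeing the data. Of the lists described, these counts moved by over 1.5 times besides the cases given with the lists. With the 8 plastic control libraries alone 11 glycolysis, 4 NF-kappaB and 1 EGF-family genes were higher, against 7, 2 and 2. With only the groups compared 1 EGF-family gene was higher, with DESeq2 1 NF-kappaB gene was higher, and with no count filter 4 replication and mitosis genes were lower, against 2. With 2 libraries a group and 1 left out, the lone library is assumed to vary like the other groups. Low-count genes limit the folds: at 0 to 3 reads in a line on plastic only bounds or counting intervals were given. For the difference between surfaces no such bounds were made. There C3, CYBA, TTR, ALPP and PLA2G4A had 0 to 3 reads in each library of 1 line on ACP.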

Other observations

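The VCaP plastic libraries differed from each other in the genes given here, which were chosen after their values were seen. They include STEAP4, a member of the androgen-induced list. REG4, a secreted lectin of intestinal and neuroendocrine cells, was at 1.64 and 173 CPM in VCaP replicates 1 and 2 on plastic and at 555 and 413 CPM on ACP. TGM4, the prostate transglutaminase, was at 0.0292 and 23.4 CPM on plastic, and AOX1 and STEAP4 were also higher in replicate 2. TNC, the matrix protein tenascin C, went the other way at 125 and 9.36 CPM on plastic and 5.98 and 8.003 CPM on ACP. OR51E1, an olfactory receptor expressed in prostate, was at 16.8 and 0 CPM on plastic, and SAMD5 was at 87.9 and 11.8 CPM. For these genes the 2 VCaP replicates on plastic gave no common level.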
